A study of Mus musculus with 28 samples.

Results

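The genes described here are 83 carriers of the solute carrier (Slc) superfamily in the mouse colon, chosen by name alone: every gene of the authors' table whose symbol places it in family 1, 2, 3, 5, 6, 7, 15, 16, 27, 36, 38 or 43. They were 83 of the 14123 genes tested. The rule uses no measured value, but the families were picked with earlier results of these data known. The families hold 9 Slc2 and 9 Slc5 genes, 12 Slc16 genes, 2 Slc3 and 11 Slc7 genes, 6 Slc1, 7 Slc38, 3 Slc36 and 3 Slc43 genes, 13 Slc6 genes, 4 Slc15 genes and 4 Slc27 genes. For 31 of the 83 the array carries several probe sets, and the one with the highest mean stood for the gene. SLC5A4 and SLC6A20 are names of the table for which no single mouse gene was matched.

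The 28 arrays measured RNA of distal or proximal colon, taken from female mice of the strain C57BL/6J with inflammation-driven colon tumours or without treatment. Treated mice received 1 injection of azoxymethane (AOM, 10 mg/kg), a carcinogen of the colon, and from 96 hours later dextran sulfate sodium (DSS, 2.5% in the drinking water), which injures the colon lining, for 5 days per cycle followed by 14 days of water. The groups were late distal (n = 6) and late proximal (n = 4), taken on day 120 after 4 cycles, early distal (n = 3) and early proximal (n = 3), taken on day 42 after 2 cycles, and untreated distal (n = 6) and untreated proximal (n = 6), from mice given neither agent. The labels describe dysplasia in the distal part of early mice, dysplasia and intramucosal adenocarcinoma in that of late mice, and an unaffected proximal part. The labels state at least 3 animals per group and do not say whether arrays of the same number share an animal, so p-values measure the spread between arrays.

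All values are log2 expression levels, and a difference of 1 log2 unit is a doubling. In bulk tissue, fewer cells of a type and less RNA per cell cannot be told apart. The median level of probe sets outside the authors' table, 4.114 log2 units, served as a mark of dim signal, and a difference from a group at or below it rests on a level that may not be above background. Levels of different genes come from different probe sets and are not set against each other. A gene was called where the moderated test of limma gave a Benjamini-Hochberg adjusted p under 0.05 over all 14123 genes, and differences are printed with their moderated standard error (SE).

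The regional labels of 2 arrays went against the tissue pattern. The mean level of 6 posterior Hox genes, which mark the distal end of the gut, was 5.70 log2 units on untreated distal array 3, against 8.77 to 9.40 on the other 5 untreated distal arrays, and 9.0 on untreated proximal array 1, against 5.42 to 5.87 on the other 5. On the late proximal arrays this mean ran from 5.59 to 7.10. Its upper end lay above the early proximal arrays (5.42 to 5.78) and below the late distal arrays (8.54 to 9.16). The groups were kept as labelled, and results that move are also given without untreated distal array 3 and untreated proximal array 1. Cell type markers shifted with treatment as well. The mean of 6 absorptive colonocyte markers ranged from 10.5 to 12.3 log2 units in the late distal colon, 12.3 to 12.6 in the early distal colon and 12.8 to 12.9 in the untreated distal colon, and 6 of 6 were called lower in the late distal colon. The mean of the 3 measured neutrophil markers, of 5 listed, ranged from 10.3 to 11.1 in the late distal, 9.71 to 11.5 in the early distal and 9.87 to 11.6 in the early proximal colon, against 4.44 to 6.31 in the untreated distal and 4.47 to 5.83 in the untreated proximal colon. In the late distal colon 5 of 5 macrophage, 5 of 5 T cell, 4 of 5 B and plasma cell and 5 of 5 fibroblast markers were called higher (in the early distal colon 5, 5, 5 and 4, and in the early proximal colon 3, 1, 2 and 4), and 5 of 6 enteric neuron and glia, 3 of 4 measured smooth muscle and 3 of 4 measured adipocyte markers lower. The level of Cpa1, a gene of pancreatic acinar cells, exceeded 7 log2 units on 6 arrays (late distal 2, 3 and 5, early distal 3, untreated distal 1 and untreated proximal 1).

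The values of the 6 early arrays differed from those of the other 22 in their last digits. In 19184 of 45101 probe sets all 6 early arrays carry a sixth decimal, in 0 only some of them do, and 0 values of the other 22 arrays carry one. Of 5965 probe sets at 10 log2 units or more on all early arrays, 5780 (96.9%) had the same digits past the fourth decimal on all 6, while 5061 of 5061 such probe sets on the other arrays had no digit past it. Adding 1 amount per probe set to all 6 arrays would give shared endings of this kind, and whether this was done was not tested. How the values were made is not given in the sources used here. Such an amount would enter every early minus untreated difference, alike in both regions, and every late minus early difference, where it cannot be told apart from the early state. It would cancel between early distal and early proximal arrays.

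Carriers of these families move small nutrients across membranes. Slc2 proteins let sugars pass along their gradient, and Slc5 proteins pull sugars, inositol, vitamins or short-chain monocarboxylates in with sodium. The colon is known for taking up butyrate, the main fuel of its absorptive cells, which bacteria make from fibre, mainly through Slc16a1 and Slc5a8. Amino acids pass through Slc1, Slc6, Slc7, Slc36, Slc38 and Slc43 proteins, and several Slc7 light chains reach the surface only when bound to a heavy chain of the Slc3 family.

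Among the comparisons with the untreated colon, the most carriers were called in the late distal colon, the largest treated group (n = 6). There 46 of the 83 were called against the untreated distal colon, 22 higher and 24 lower, a share of 55.4% beside 48.5% of all genes tested (26% higher and 22.6% lower). The median difference was -0.097 log2 units over the carriers and 0.0038 over all genes. The shares over all genes stand beside each late distal count by family or list given below. Genes of the Slc2 and Slc5 families, which carry sugars and in part inositol, vitamins or monocarboxylates, were not called higher. Of these 18 genes, 9 were called lower. Slc7 amino acid carriers went mostly the other way, with 6 higher and 1 lower of 11. The other amino acid families were divided. Slc6 had 3 higher and 6 lower of 13, and Slc1 had 2 and 2 of 6. Slc38 had 3 higher and 0 lower of 7, Slc43 had 1 and 0 of 3, and Slc36 had 0 and 1 of 3. In the early distal colon 13 carriers were called, 9 higher and 4 lower, beside 11.3% of all genes (7.02% higher and 4.25% lower). Simulated data of this design had 35.8% of 1.5-fold changes called in the early distal and 52.2% in the late distal colon. Fewer calls in a smaller group therefore need not mean a smaller shift. In the early proximal colon 8 were called, 7 higher and 1 lower, beside 7.59% of all genes (4.98% higher and 2.61% lower). In the late proximal colon 0 carriers were called by limma, beside 0.0212% of all genes. There 9 carriers had an unadjusted p under 0.05. All genes were not counted at that threshold, so the 9 are no result about the carriers.

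**Figure D1:**
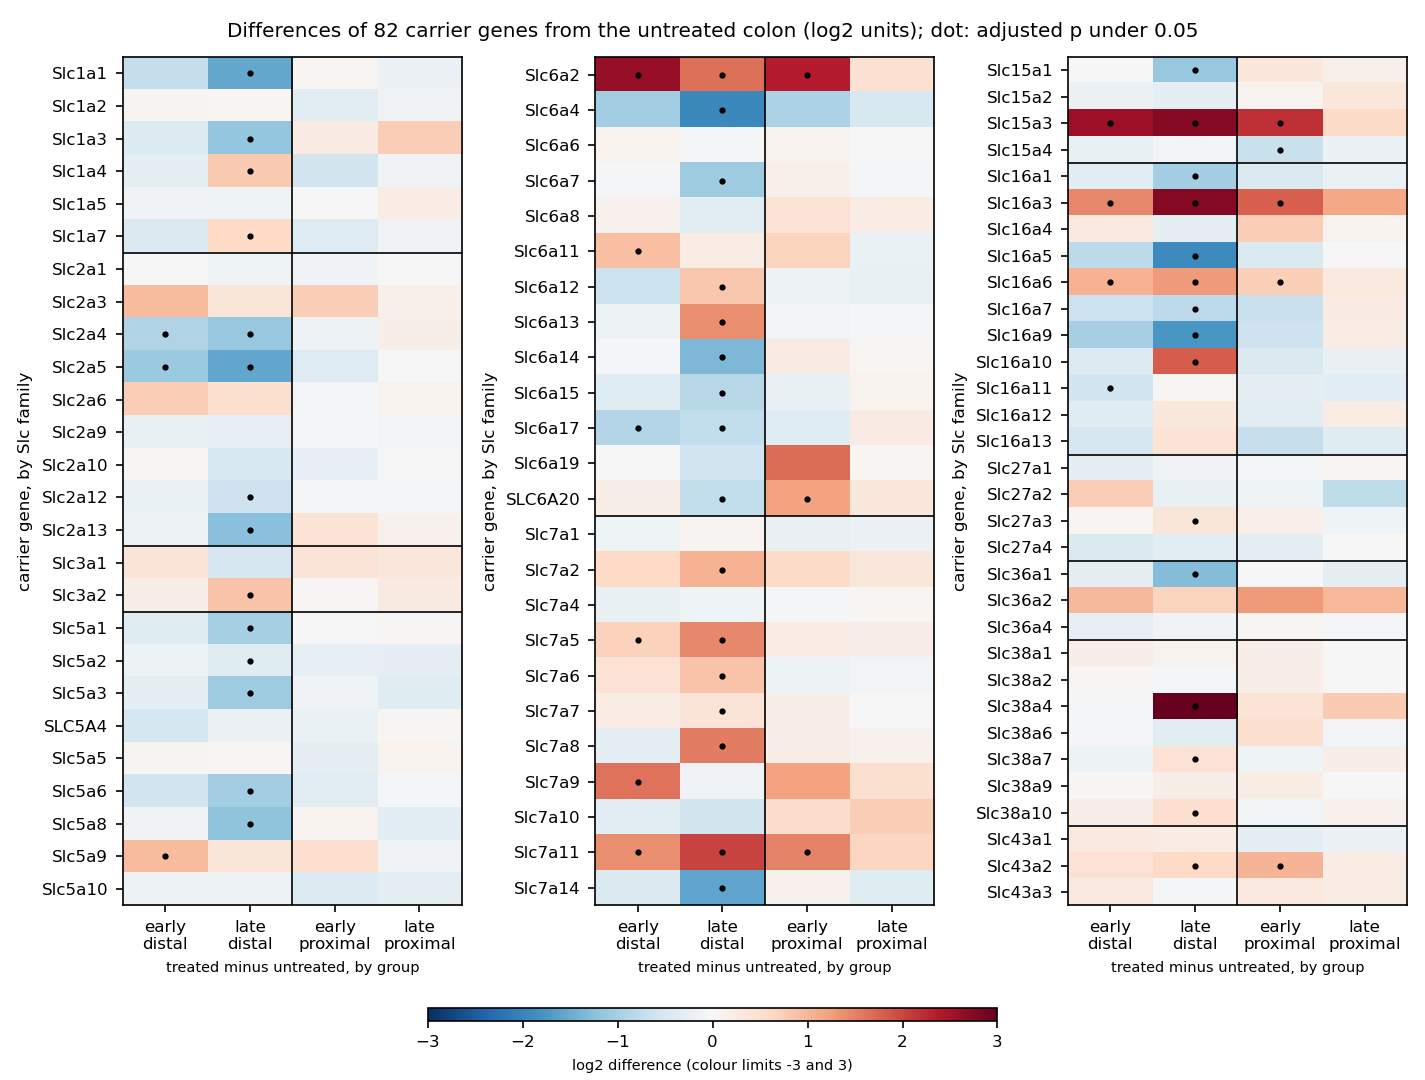
Log2 difference of each of 82 carriers (rows, by Slc family) in the early and the late distal and in the early and the late proximal colon, each minus the untreated colon of the same region; red is higher, blue is lower, colours end at 3 log2 units, and a dot marks an adjusted p under 0.05. Dots are densest in the late distal column (45 genes) and absent from the late proximal column (0 genes).

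Among the sugar carriers, the 4 called Slc2 genes all fell in the late distal colon. Slc2a5 carries fructose. Its level ranged from 5.74 to 6.68 (median 6.40) on the late distal arrays, was 6.85, 6.81 and 6.40 on the early distal arrays, and ranged from 7.39 to 8.35 (median 7.75) on the untreated distal arrays. All 9 treated distal arrays lay below all 6 untreated ones. The difference was -1.55 ± 0.18 log2 units late (adjusted p = 2.82e-07) and -1.11 ± 0.23 early (adjusted p = 0.00168). In the proximal colon it was -0.0022 ± 0.21 late and -0.39 ± 0.23 early, neither of them called.

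Slc2a4, the insulin-responsive glucose carrier of fat and muscle, ranged from 7.97 to 8.70 (median 8.57) on the late distal arrays and from 9.17 to 10.38 (median 9.47) on the untreated ones. The early distal arrays held 8.64, 9.04 and 8.53, so neither treated group overlapped the untreated group. The difference was -1.14 ± 0.18 log2 units late (adjusted p = 1.49e-05) and -0.89 ± 0.22 early (adjusted p = 0.0084), the early call being lost without early distal array 3. Adipocyte markers were lower in the late distal colon too, with list means of 5.32 to 8.13 log2 units against 7.45 to 9.02 in the untreated distal colon, and their part in the fall was not tested. Slc2a13, a proton-coupled myo-inositol carrier, fell by 1.24 ± 0.18 (adjusted p = 3.74e-06), and Slc2a12, a glucose carrier, by 0.62 ± 0.15 (adjusted p = 0.00111), both without overlap of the late and the untreated distal arrays.

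The widely used glucose carrier Slc2a1 was not called in any treatment comparison. It ranged from 12.44 to 12.80 (median 12.59) on the late distal arrays and from 12.44 to 12.90 (median 12.79) on the untreated distal arrays, with a difference of -0.13 ± 0.09 log2 units (adjusted p = 0.238). Slc2a3, a high-affinity glucose carrier of neurons and leukocytes, stood at 8.40, 9.62 and 9.41 on the early distal arrays against 7.80 to 8.90 (median 7.99) on the untreated ones, and its difference of 0.95 ± 0.33 was not called (adjusted p = 0.0629). The late distal differences of the other 3 Slc2 genes, Slc2a6, Slc2a9 and Slc2a10, ran from -0.46 (Slc2a10) to 0.47 (Slc2a6). Slc2a6, a hexose carrier of lysosomes, was called higher without the 2 arrays of opposite regional pattern (0.65 ± 0.17, adjusted p = 0.00255), as were Slc16a13 (0.55 ± 0.17), Slc38a9 (0.35 ± 0.13) and, in the lower direction, Slc6a8 (-0.62 ± 0.14). With these the count of late distal calls was 50, a share of 60.2% beside 51.3% of all genes.

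Of the 9 sodium-coupled Slc5 carriers, 5 fell in the late distal colon and 0 rose. Slc5a1, the sodium-glucose carrier of the gut, ranged from 9.92 to 10.75 (median 10.47) on the late distal arrays and from 11.13 to 11.80 (median 11.38) on the untreated ones. The arrays did not overlap, and Slc5a1 fell by 0.99 ± 0.13 log2 units (adjusted p = 1.77e-06). Slc5a3, a myo-inositol carrier that responds to osmotic stress, fell by 1.06 ± 0.25 (adjusted p = 0.00117). Slc5a6, which carries biotin and pantothenate, fell by 1.03 ± 0.26 (adjusted p = 0.00216), and Slc5a2, the second sodium-glucose carrier, known from the kidney, by 0.38 ± 0.12 (adjusted p = 0.0151). The late and the untreated distal arrays overlapped in Slc5a3 and Slc5a6 only through untreated distal array 3, at 10.16 for Slc5a3 and 7.02 for Slc5a6. Slc5a9, a mannose and glucose carrier, was the 1 Slc5 gene called early: it rose by 0.96 ± 0.28 in the early distal colon (adjusted p = 0.0231), where its arrays held 7.50, 7.88 and 8.75, against 6.87 to 7.49 (median 6.98) untreated, and the call was lost without early distal array 2 or 3. The late distal differences of Slc5a9, the iodide carrier Slc5a5, Slc5a10 and SLC5A4 ran from -0.18 (SLC5A4) to 0.37 (Slc5a9), and none was called.

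The 2 butyrate carriers fell together in the late distal colon. Slc16a1, which moves butyrate and lactate with a proton, ranged from 11.46 to 12.10 (median 11.78) on the late distal arrays and from 12.53 to 13.05 (median 12.83) on the untreated distal arrays. Slc5a8, which takes up the same acids with sodium, ranged from 11.15 to 12.33 (median 11.43) against 12.37 to 13.03 (median 12.90). In both genes every late distal array lay below every untreated one. The differences were -1.03 ± 0.13 log2 units for Slc16a1 (adjusted p = 1.04e-06) and -1.21 ± 0.17 for Slc5a8 (adjusted p = 3.49e-06), or 2.04-fold and 2.32-fold lower. The early distal arrays held 12.59, 12.52 and 12.25 for Slc16a1 and 13.00, 12.66 and 12.53 for Slc5a8, and neither early difference was called (-0.34 ± 0.16 and -0.094 ± 0.21). The absorptive colonocyte markers fell in the late distal colon as well, with list means of 10.5 to 12.3 against 12.8 to 12.9 log2 units, and how far they account for these falls was not tested.

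Slc16a3, which exports lactate from cells that rely on glycolysis, was the Slc16 gene with the largest rise. It ranged from 9.77 to 10.99 (median 10.57) on the late distal arrays and from 6.8 to 8.36 (median 7.82) on the untreated distal arrays, without overlap. The difference was 2.74 ± 0.31 log2 units, or 6.7-fold (adjusted p = 1.49e-07). The early distal arrays held 7.91, 9.69 and 9.87, of which array 1 lay within the untreated range, and the early proximal arrays held 8.13, 9.79 and 9.20 against 6.86 to 7.57 (median 7.27) in the untreated proximal colon, with no overlap. The early rises were 1.45 ± 0.38 distally (adjusted p = 0.0131) and 1.80 ± 0.38 proximally (adjusted p = 0.00484). The distal rise lost its call without early distal array 2 or 3, and the proximal rise without early proximal array 2. On the late proximal arrays, at 7.69, 8.90, 8.53 and 8.45, all 4 values lay above the untreated ones, and the difference of 1.16 ± 0.35 was not called (adjusted p = 0.241). Neutrophil and macrophage markers were higher in the early and the late distal and the early proximal colon, and their part in these rises was not tested.

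**Figure D2:**
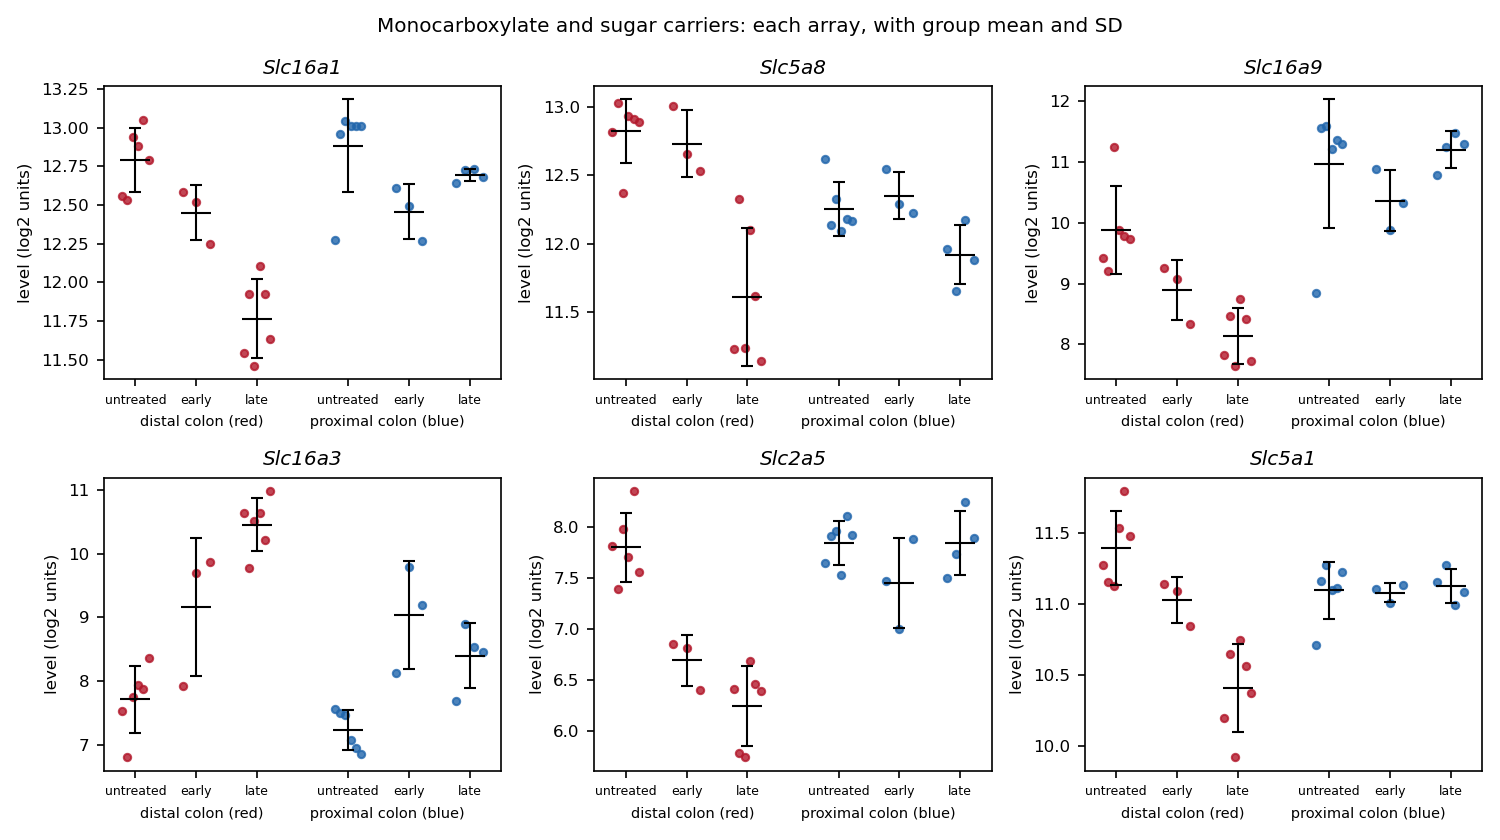
Log2 level on each array (points) for 4 monocarboxylate carriers (Slc16a1, Slc5a8, Slc16a9, Slc16a3) and 2 sugar carriers (Slc2a5, Slc5a1) in the untreated, early and late distal colon (red) and proximal colon (blue); bars are the group mean and SD. The late distal points of Slc16a1 (11.46 to 12.10) and Slc5a8 (11.15 to 12.33) sit below, and those of Slc16a3 (9.77 to 10.99) above, all untreated distal points.

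Of the 12 Slc16 genes, 4 rose and 4 fell in the late distal colon, beside 26% and 22.6% of all genes. Slc16a5, a carrier of drugs and of prostaglandin, fell by 1.91 ± 0.27 log2 units in the late distal colon (adjusted p = 3.51e-06), with 7.44 to 8.93 (median 8.49) on the late arrays against 9.70 to 10.80 (median 10.18) on the untreated arrays. Slc16a9, linked to carnitine transport, fell by 1.74 ± 0.37 (adjusted p = 0.000456), and Slc16a7, a high-affinity carrier of pyruvate and lactate, by 0.79 ± 0.20 (adjusted p = 0.00266). Slc16a10, which carries aromatic amino acids, rose by 1.82 ± 0.26 (adjusted p = 4.72e-06), and Slc16a6, a ketone body carrier, by 1.29 ± 0.17 (adjusted p = 1.39e-06). Slc16a10 held 6.49, 6.95 and 6.63 on the early distal arrays, within or below the untreated range of 6.63 to 7.78 (median 7.09), and it was higher in the late than in the early distal colon by 2.24 ± 0.32 (adjusted p = 1.92e-05). Slc16a4, Slc16a11, Slc16a12 and Slc16a13 were not called late, with differences of -0.27 to 0.42, and Slc16a11 fell by 0.58 ± 0.16 early (adjusted p = 0.0198), a call that was lost without early distal array 2 or 3.

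Among 16 measured genes of glycolysis and lactate metabolism, 4 were called higher and 2 lower in the late distal colon. The shares over all genes were 26% and 22.6%, and the median difference of the 16 was -0.02 log2 units. Pfkfb3, which makes an activator of phosphofructokinase, rose by 1.31 ± 0.35 (adjusted p = 0.00345), while Pfkm, a muscle form of phosphofructokinase, fell by 0.74 ± 0.14 (adjusted p = 0.000188) and the hexokinase Hk1 by 0.59 ± 0.09 (adjusted p = 1.11e-05). Of 7 measured partners of the carriers, 1 was higher and 5 were lower. Emb, an alternative partner of monocarboxylate carriers, rose by 1.62 ± 0.26 (adjusted p = 1.72e-05).

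The heavy chain Slc3a2 and 5 of its 6 measured Slc7 light chains rose in the late distal colon, and the other, Slc7a10, was not called. Slc3a2, the heavy chain of CD98, ranged from 10.60 to 11.21 (median 10.85) on the late distal arrays, without overlap with 9.91 to 10.24 (median 10.04) on the untreated ones, and rose by 0.85 ± 0.11 log2 units (adjusted p = 1.15e-06). Of its light chains, Slc7a11, which brings in cystine for glutathione in exchange for glutamate, ranged from 5.76 to 7.31 (median 6.84) against 4.19 to 5.65 (median 4.67). It rose by 2.03 ± 0.35, or 4.09-fold (adjusted p = 3.58e-05). Slc7a5, which takes up leucine and other large neutral amino acids, ranged from 9.85 to 10.25 (median 10.05) against 8.24 to 8.98 (median 8.57), a rise of 1.45 ± 0.18 (adjusted p = 6.74e-07). Every late distal array exceeded every untreated distal array in both genes.

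Slc7a8, a second carrier of large neutral amino acids, ranged from 7.16 to 8.98 (median 8.31) on the late distal arrays against 6.26 to 6.83 (median 6.79) on the untreated ones and rose by 1.54 ± 0.22 (adjusted p = 3.34e-06). The early distal arrays, at 6.40, 6.08 and 6.54, were not above the untreated ones, and the late colon exceeded the early colon by 1.83 ± 0.27 (adjusted p = 2.14e-05). The light chains Slc7a6 and Slc7a7, which exchange arginine for glutamine, rose by 0.85 ± 0.15 (adjusted p = 3.89e-05) and 0.39 ± 0.12 (adjusted p = 0.00689). Slc7a2, an arginine carrier known from activated macrophages, rose by 1.04 ± 0.22 (adjusted p = 0.000434). The related arginine carrier Slc7a1 did not pass the test (0.075 ± 0.13), nor did Slc7a4, which has no established substrate (-0.12 ± 0.15), or the light chain Slc7a10, a carrier of small neutral amino acids (-0.55 ± 0.25). Slc7a14, a lysosomal family member known from neurons, was the 1 Slc7 gene that fell, by 1.58 ± 0.22 (adjusted p = 2.99e-06), and enteric neuron and glia markers were lower in the same arrays (list means of 6.20 to 6.75 against 7.26 to 7.64 log2 units).

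**Figure D3:**
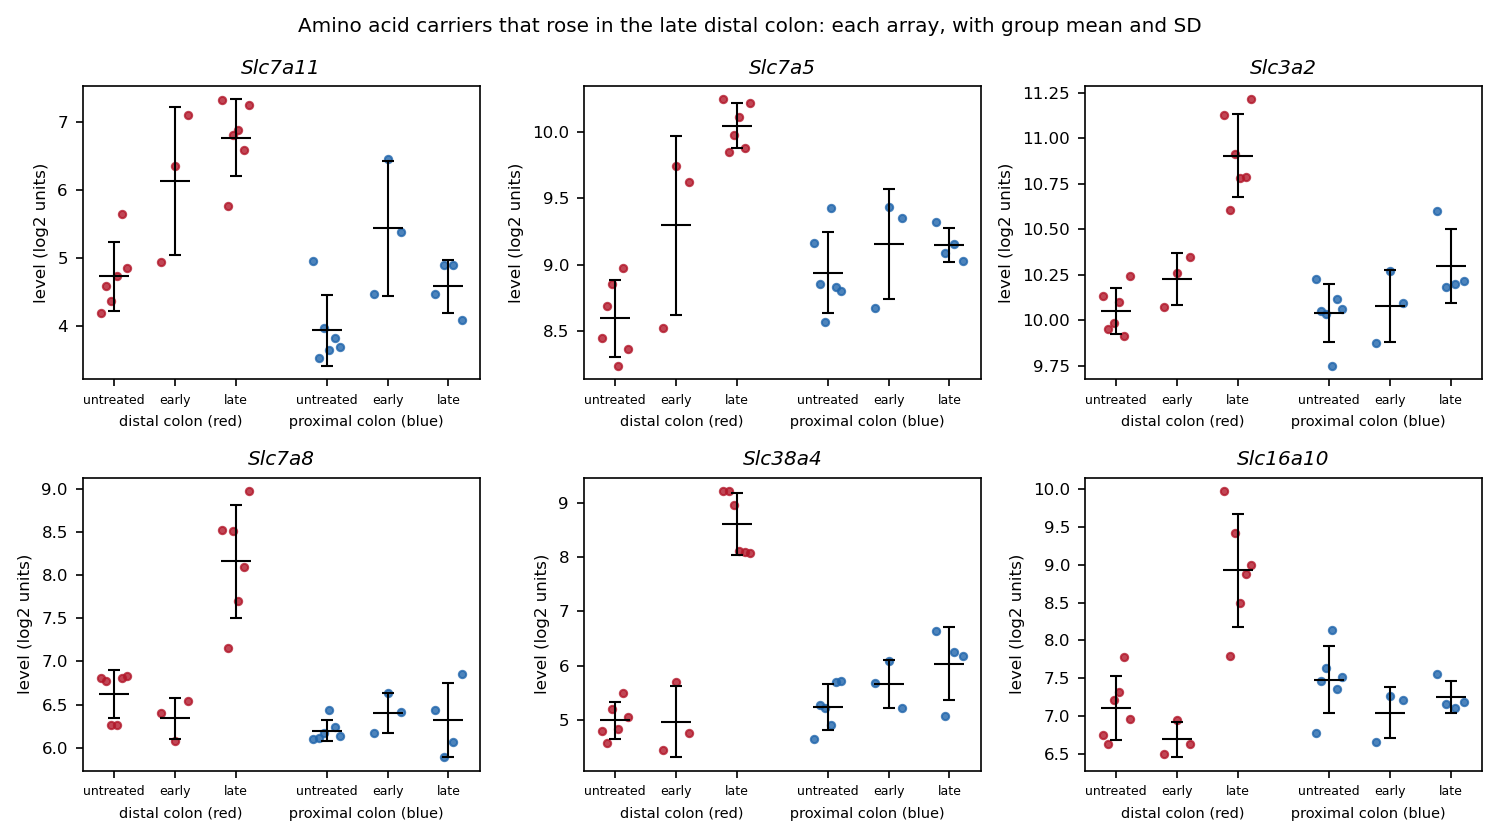
Log2 level on each array (points) of Slc7a11, Slc7a5, Slc3a2, Slc7a8, Slc38a4 and Slc16a10 in the untreated, early and late distal colon (red) and proximal colon (blue), with group mean and SD. All 6 late distal points lie above all 6 untreated distal points in each panel, while the early distal points of Slc7a8, Slc38a4 and Slc16a10 stay near the untreated ones.

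The second heavy chain, Slc3a1, pairs with Slc7a9 to take up cystine and basic amino acids. Slc3a1 was not called in the late distal colon (-0.51 ± 0.24, adjusted p = 0.0837), and was called lower with each array centred on its median or with quantile normalization repeated. Slc7a9 stood at 10.53, 9.03 and 8.95 on the early distal arrays, at 6.83 to 8.37 (median 7.91) on the late ones and at 7.47 to 8.33 (median 7.85) on the untreated ones. It rose early by 1.62 ± 0.46 log2 units (adjusted p = 0.0205) and was lower in the late than in the early distal colon, with a difference of -1.73 ± 0.46 (adjusted p = 0.00829). Early distal array 1 was the highest, and both calls were lost without it.

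The promoters of 59 of the carriers were listed in RefSeq (GRCm38.p6, 80 windows). Each window runs from 250 bases before to 50 after a listed start, which can lie inside the span of the gene. The windows were searched on both strands for TGATGNAA, the element read by ATF4 with C/EBP factors in the amino acid response. It was present in 3.97% of all 32841 listed promoters and in 3 of the 59 carriers: Slc7a11, Slc7a7 and the neutral amino acid carrier Slc1a4. All 3 genes were called higher in the late distal colon. A match is a description of these letters and not of binding. The 3 windows are shown because the genes were called in the same direction, 5′ to 3′ on the gene's strand with the matching letters in capitals (matches to the other strand read TTNCATCA). They are chr3:50443564-50443863 (minus strand) for Slc7a11, chr14:54417895-54418194 (minus strand, 1 of 5 listed) for Slc7a7 and chr11:20332664-20332963 (minus strand) for Slc1a4.
Slc7a11: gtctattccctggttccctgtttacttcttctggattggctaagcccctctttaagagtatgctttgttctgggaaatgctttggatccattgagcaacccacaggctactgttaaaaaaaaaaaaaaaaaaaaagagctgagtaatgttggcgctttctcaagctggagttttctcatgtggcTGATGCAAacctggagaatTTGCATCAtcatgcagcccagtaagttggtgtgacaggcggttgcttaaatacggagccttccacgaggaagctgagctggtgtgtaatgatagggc
Slc7a7: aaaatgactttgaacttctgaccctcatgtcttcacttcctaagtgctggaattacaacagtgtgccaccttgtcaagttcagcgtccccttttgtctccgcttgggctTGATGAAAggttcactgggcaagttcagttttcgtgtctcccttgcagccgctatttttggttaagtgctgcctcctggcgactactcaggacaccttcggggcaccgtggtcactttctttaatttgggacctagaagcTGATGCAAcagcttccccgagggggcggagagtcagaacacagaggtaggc
Slc1a4: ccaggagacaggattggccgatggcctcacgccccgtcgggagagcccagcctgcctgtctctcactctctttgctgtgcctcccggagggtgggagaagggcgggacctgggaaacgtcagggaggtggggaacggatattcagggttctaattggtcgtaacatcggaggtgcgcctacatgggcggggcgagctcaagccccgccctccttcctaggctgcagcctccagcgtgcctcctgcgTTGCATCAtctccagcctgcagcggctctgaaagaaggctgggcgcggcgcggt
In Slc7a11 the 2 matches lie on opposite strands and begin 66 and 47 bases before the start listed for this window. ACGTG, the core of the hypoxia response element, was present in 19.63% of all promoters and in 22 of the 59 carriers. TGACNNNGC, the core of the antioxidant response element, was present in 12.4% and in 9 of the 59. A carrier counts once where any of its windows matches, so counts of carriers and shares of single windows are unlike measures. The same holds for TGATGNAA. Of the 22 carriers with ACGTG, 9 were called higher, 6 lower and 7 not at all in the late distal colon, and of the 9 with TGACNNNGC, 2 were higher, 2 lower and 5 not called. Slc16a3 is shown for its rise in both regions of the early colon, with 2 matches to ACGTG in capitals (chr11:120948817-120949116, plus strand).
Slc16a3: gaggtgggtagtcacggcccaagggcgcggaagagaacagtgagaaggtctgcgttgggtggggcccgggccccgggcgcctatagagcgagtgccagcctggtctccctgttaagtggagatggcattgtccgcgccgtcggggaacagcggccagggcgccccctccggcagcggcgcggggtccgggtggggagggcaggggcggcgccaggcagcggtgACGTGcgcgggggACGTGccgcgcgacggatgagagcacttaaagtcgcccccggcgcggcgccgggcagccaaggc
The first letters of the 2 matches lie 27 and 14 bases before the start listed for this window.

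Genes of the amino acid response and of serine synthesis were followed beside the carriers. In the late distal colon 13 of 17 measured were called higher and 1 lower, with a median difference of 0.68 log2 units beside 0.0038 over all genes. Phgdh, which opens serine synthesis, rose by 1.87 ± 0.25 (adjusted p = 1.35e-06), Psat1, its second enzyme, by 1.73 ± 0.22 (adjusted p = 9.81e-07), Chac1, which degrades glutathione, by 1.14 ± 0.31 (adjusted p = 0.00439) and Shmt2, a mitochondrial serine enzyme, by 0.90 ± 0.17 (adjusted p = 0.000132). In the early distal colon 1 of the 17 was called higher and 0 lower, and in the early and the late proximal colon 0 by limma. Of 13 genes that use arginine or glutamine, 4 were higher and 3 lower in the late distal colon. The shares over all genes were 26% and 22.6%. Arg1, the arginase of activated macrophages and liver, rose by 4.96 ± 0.31 (adjusted p = 5.02e-12) and Nos2, the inducible nitric oxide synthase, by 2.27 ± 0.36 (adjusted p = 1.36e-05).

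Slc38a4, a sodium-coupled carrier of small neutral amino acids and an imprinted gene, had the largest rise of all 83 carriers in the late distal colon. Its level ranged from 8.07 to 9.22 (median 8.54) on the late distal arrays, was 4.44, 5.70 and 4.75 on the early distal arrays and ranged from 4.56 to 5.5 (median 4.94) on the untreated distal arrays. The late arrays lay above both other groups, which overlapped. Late distal arrays 1 to 3 held 9.22, 9.22 and 8.95, and arrays 4 to 6 held 8.12, 8.10 and 8.07. The rise was 3.62 ± 0.28 log2 units, or 12.3-fold (adjusted p = 1.84e-10), and the late colon exceeded the early colon by 3.65 ± 0.34 (adjusted p = 2.01e-08). On the late proximal arrays it held 6.64, 5.07, 6.25 and 6.17, a difference of 0.79 ± 0.31 from the untreated proximal colon that was not called (adjusted p = 0.397).

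Of the other 6 Slc38 genes, 2 rose in the late distal colon. Slc38a7, a glutamine carrier of the lysosome, rose by 0.44 ± 0.13 (adjusted p = 0.00733) and Slc38a10 by 0.51 ± 0.13 (adjusted p = 0.00239), although 2 of the 4 other probe sets of Slc38a10 were lower (-0.10 and -0.21). The glutamine carriers Slc38a1 and Slc38a2 differed by 0.11 ± 0.10 and -0.057 ± 0.14, neither of them called, and neither were Slc38a6 (-0.31 ± 0.20) and the lysosomal arginine sensor Slc38a9 (0.20 ± 0.15). In the Slc43 family Slc43a2, a carrier of branched-chain amino acids, rose by 0.61 ± 0.18 (adjusted p = 0.00621), and Slc43a1 (0.23 ± 0.14) and Slc43a3 (-0.035 ± 0.19) were not called. In the Slc36 family Slc36a1, a proton-coupled carrier of small amino acids, fell by 1.29 ± 0.41 (adjusted p = 0.0122), or by 1.77 ± 0.19 without the 2 arrays of opposite regional pattern. Its relatives Slc36a2 (0.67 ± 0.38) and Slc36a4 (-0.094 ± 0.15) were not called.

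Of the 6 Slc1 genes, 2 rose and 2 fell in the late distal colon, beside 26% and 22.6% of all genes. Slc1a1, the glutamate carrier of epithelia and neurons, fell by 1.53 ± 0.34 (adjusted p = 0.000699), with 9.34 to 10.73 (median 9.79) on the late distal arrays and 10.62 to 11.65 (median 11.58) on the untreated ones. The ranges overlapped only through untreated distal array 3, at 10.62. Slc1a3, the glutamate carrier of astrocytes and glia, fell by 1.15 ± 0.25 without overlap (adjusted p = 0.000592). Slc1a4 rose by 0.78 ± 0.16 (adjusted p = 0.000361), and Slc1a7, a glutamate carrier known from the retina, by 0.59 ± 0.15 (adjusted p = 0.00266). The glutamine carrier Slc1a5 was not called (-0.13 ± 0.18), nor was the glial glutamate carrier Slc1a2 (0.053 ± 0.20).

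Of the 13 Slc6 genes, 3 rose and 6 fell in the late distal colon, beside 26% and 22.6% of all genes. Slc6a4, the serotonin carrier, fell by 1.93 ± 0.42 log2 units (adjusted p = 0.00054), with levels of 6.33 to 7.97 (median 7.70) late against 7.02 to 10.10 (median 9.88) untreated. The 2 groups overlapped through untreated distal array 3, at 7.02, and without the 2 arrays of opposite pattern it fell by 2.38 ± 0.29. Slc6a14, which takes up neutral and basic amino acids at the luminal side, fell by 1.34 ± 0.19 without overlap (adjusted p = 3.21e-06), with 10.09 to 11.27 (median 10.62) late against 11.67 to 12.25 (median 12.02) untreated. Its early distal difference of -0.05 ± 0.23 was not called. The proline carrier Slc6a7 fell by 1.07 ± 0.33 (adjusted p = 0.009), the imino acid carrier listed as SLC6A20 by 0.74 ± 0.28 (adjusted p = 0.0316), and the neuronal carriers Slc6a15 and Slc6a17 by 0.83 ± 0.17 and 0.73 ± 0.19 (adjusted p = 0.000239 and 0.00217). The late distal median of Slc6a15, 4.05, lay below the dim mark of 4.114.

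The 3 Slc6 genes that rose carry noradrenaline, betaine and GABA. Slc6a13, a GABA and taurine carrier, rose by 1.41 ± 0.18 (adjusted p = 1.16e-06), with 5.66 to 7.08 (median 6.48) on the late arrays against 4.84 to 5.27 (median 5.12) on the untreated arrays. Slc6a12, the betaine and GABA carrier, rose by 0.82 ± 0.24 (adjusted p = 0.00762), with overlap. Slc6a2, the noradrenaline carrier, was higher in the early distal colon (4.86, 7.05 and 6.37) and the early proximal colon (5.21, 6.43 and 6.33) than on the untreated arrays of either region (highest 4.09 distal and 4.59 proximal). The rises were 2.62 ± 0.48 (adjusted p = 0.000709), 2.35 ± 0.48 (adjusted p = 0.00362) and, in the late distal colon, 1.66 ± 0.39 (adjusted p = 0.00126). The untreated levels of Slc6a2 (medians of 3.62 distal and 3.55 proximal) lay below the dim mark of 4.114. Of the remaining Slc6 genes, the GABA carrier Slc6a11 rose by 0.91 ± 0.22 early (adjusted p = 0.00605) and was not called late. The taurine carrier Slc6a6, the creatine carrier Slc6a8 and the neutral amino acid carrier Slc6a19 were not called in the treated distal colon, with late differences of -0.028 ± 0.09, -0.35 ± 0.26 and -0.60 ± 0.55. Slc6a19 stood at 7.45, 6.93 and 8.16 on the early proximal arrays against 4.11 to 7.60 (median 6.10) on the untreated ones, and its difference of 1.68 ± 0.67 was not called (adjusted p = 0.121).

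Of the 4 peptide carriers, 1 rose and 1 fell in the late distal colon. Slc15a3, a histidine and peptide carrier of lysosomes in immune cells, ranged from 8.48 to 9.43 (median 8.72) on the late distal arrays and from 5.88 to 6.28 (median 6.07) on the untreated distal arrays, and the early distal arrays held 7.28, 8.95 and 9.71. Neither treated group overlapped the untreated group. The rise was 2.73 ± 0.30 log2 units late, or 6.62-fold (adjusted p = 9.68e-08), and 2.57 ± 0.37 early (adjusted p = 6.66e-05). In the early proximal colon it was 2.20 ± 0.37 (adjusted p = 0.000718). Macrophage markers were called higher in these groups (5 of 5 in the late and the early distal, 3 of 5 in the early proximal colon), and their part was not tested. Slc15a1, the luminal carrier of di- and tripeptides, fell in the late distal colon by 1.13 ± 0.44 (adjusted p = 0.0349), or by 1.60 ± 0.25 without the 2 arrays of opposite pattern (adjusted p = 1.31e-05). Slc15a2, the high-affinity peptide carrier, was not called in the treatment comparisons and varied widely within groups (SD of 1.14 late distal and 0.99 untreated distal). Slc15a4, a lysosomal relative of Slc15a3, was the 1 carrier that fell in the early proximal colon, by 0.67 ± 0.20 (adjusted p = 0.0387), and it was not called in the late (-0.083 ± 0.16) or the early distal colon (-0.23 ± 0.20).

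Of the 4 fatty acid carriers, 1 was called in the treated colon. Slc27a3 rose by 0.37 ± 0.12 log2 units in the late distal colon (adjusted p = 0.017), a call lost with each array centred on its median or with quantile normalization repeated. The late distal differences of Slc27a1, Slc27a2, which also activates very long-chain fatty acids, and Slc27a4, a fatty acid carrier of the gut, were -0.10 ± 0.15, -0.21 ± 0.38 and -0.34 ± 0.31, none of them called. Of 9 other genes of fatty acid uptake and activation, 2 were higher and 3 lower in the late distal colon. The shares over all genes were 26% and 22.6%. Fabp2, an intestinal fatty acid binder, fell by 1.62 ± 0.37 (adjusted p = 0.000857) and the fatty acid receptor Cd36 by 0.96 ± 0.28 (adjusted p = 0.0071), while Fabp5, an epidermal binder, rose by 1.24 ± 0.25 (adjusted p = 0.000226).

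In the early colon 5 carriers rose in both regions: Slc6a2, Slc15a3, Slc16a3, Slc16a6 and Slc7a11. They were 38.5% of the 13 called in the early distal and 62.5% of the 8 called in the early proximal colon, beside 40.8% and 60.6% over all genes called. Without the 2 arrays of opposite regional pattern 5 carriers were called in both, 23.8% of 21 and 29.4% of 17, beside 40.8% and 44.4% over all genes. The 2 comparisons share no arrays, but any amount added per probe set to the early arrays would enter both. The 2 regions may also come from the same animals, which the labels do not say. Early arrays 1 and 2 correlated best with the array of their own number in the other region (0.691 and 0.55), and array 3 did not (-0.022). Slc7a11 stood at 4.47, 6.45 and 5.39 on the early proximal arrays against 3.54 to 4.95 (median 3.76) on the untreated proximal arrays, with overlap, and rose by 1.49 ± 0.42 (adjusted p = 0.0319). The untreated proximal median lay below the dim mark of 4.114. In the early distal colon its arrays held 4.95, 6.36 and 7.09, of which array 1 lay within the untreated range, and its rise was 1.40 ± 0.42 (adjusted p = 0.0306). Slc16a6 rose by 1.05 ± 0.21 distally (adjusted p = 0.00139) and 0.72 ± 0.21 proximally (adjusted p = 0.0363). Its proximal rise was not called by the authors' step-up p (0.0533), and how that call depends on single arrays is not given here. Slc7a5 rose in the early distal colon by 0.70 ± 0.22 (adjusted p = 0.0407), on arrays of 8.52, 9.75 and 9.62, and its early response was not called as different between the regions (0.49 ± 0.32, adjusted p = 0.999). Slc43a2 rose by 1.02 ± 0.22 (adjusted p = 0.00484) and SLC6A20 by 1.2 ± 0.34 (adjusted p = 0.033) in the early proximal colon, and Slc6a17 fell by 0.88 ± 0.23 in the early distal colon (adjusted p = 0.0106).

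The count of early calls depended on a few arrays. It ran from 6 to 17 in the distal colon when 1 array was left out, with 8 without early distal array 2 and 6 without array 3, and from 2 to 10 in the proximal colon, with 2 without early proximal array 2, 4 without untreated proximal array 5 and 5 without untreated proximal array 6. Without the 2 arrays of opposite regional pattern it was 21 distally (11 higher, 10 lower) and 17 proximally (10 higher, 7 lower), beside 13.2% and 12.1% of all genes. Of the genes named, Slc7a11 lost its distal call without untreated distal array 1 or 3 or early distal array 2 or 3, and Slc7a5 without untreated distal array 1, 4 or 6 or early distal array 2 or 3. Slc6a17 lost it without early distal array 3. In the proximal colon Slc6a2 lost its call without early proximal array 2, Slc7a11 without untreated proximal array 2, 4, 5 or 6 or early proximal array 2 or 3, and SLC6A20 without any 1 early proximal array or untreated proximal array 4 or 5. Slc15a4 lost it without untreated proximal array 2, 3, 4, 5 or 6 or early proximal array 1 or 2. Without the 6 arrays with Cpa1 above 7 the count was 5 distally (4 higher, 1 lower) and 12 proximally, beside 2.57% and 8.49% of all genes.

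Between the late and the early distal colon 23 carriers were called, 13 higher and 10 lower late, beside 24.1% of all genes (15.4% higher and 8.68% lower). Without the 2 arrays of opposite regional pattern, neither of which is in this comparison, 32 were called, 13 higher and 19 lower, beside 27.9% of all genes. Beyond Slc38a4, Slc16a10 and Slc7a8, Slc6a13 was higher late by 1.55 ± 0.22 (adjusted p = 2.05e-05) and Slc6a12 by 1.47 ± 0.30 (adjusted p = 0.000997). Slc16a3 was higher by 1.30 ± 0.38 (adjusted p = 0.0157), a call lost without early distal array 1. The butyrate carriers Slc5a8 and Slc16a1 were lower, with differences of -1.12 ± 0.21 (adjusted p = 0.000475) and -0.69 ± 0.16 (adjusted p = 0.00364), and so was Slc6a14, with -1.29 ± 0.23 (adjusted p = 0.000286).

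The untreated colon already differed by region. Between untreated distal and untreated proximal arrays 25 carriers were called, 12 higher and 13 lower distally, a share of 30.1% beside 9.83% of all genes (4.28% higher and 5.54% lower). Without untreated distal array 3 and untreated proximal array 1 there were 37, with 17 higher and 20 lower, a share of 44.6% beside 25.3% of all genes. With all arrays the treated groups also enter the estimate of the spread. Fitted on the 12 untreated arrays alone, 0 of the 83 carriers were called by limma, and 34 had an unadjusted p under 0.05, a threshold at which all genes were not counted. That fit has fewer residual degrees of freedom and holds both arrays of opposite regional pattern, and the cause of the lower count was not tested. Higher distally were Slc15a1 by 2.26 ± 0.44 (3.10 without the 2 arrays), Slc36a1 by 1.97 ± 0.41 (2.81), Slc16a12, a creatine carrier, by 1.89 ± 0.44 (2.76) and Slc1a1 by 1.85 ± 0.34 (2.40). Slc6a4 and the creatine carrier Slc6a8 were higher by 1.54 ± 0.42 (2.25) and 1.26 ± 0.26 (1.78). Slc6a4 lost its call without untreated distal array 1, 4, 5 or 6 or untreated proximal array 5 or 6. The adjusted p of these 6 genes ran from 0.0046 to 0.0216 with all arrays and from 1.3e-10 to 2.72e-06 without the 2. These 2 arrays were picked by a regional pattern in the same data. Larger regional differences and more calls without them are therefore no independent evidence.

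Lower distally were Slc27a2 with -1.92 log2 units (-2.64 without the 2 arrays), the cystine carrier subunit Slc3a1 with -1.52 (-1.93) and Slc27a4 with -1.34 (-1.95). Slc2a6, Slc1a2 and Slc1a4 followed with -0.94, -0.93 and -0.89 (without the 2 arrays -1.22, -1.30 and -1.04). Slc16a9 was not called with all arrays (-1.10 ± 0.37, adjusted p = 0.0602) and was called without the 2 (-1.80 ± 0.22, adjusted p = 1.06e-06). Its values on the 2 arrays were 11.26 on untreated distal array 3 and 8.84 on untreated proximal array 1, each nearer to the other arrays of the opposite region than to its own. In Slc15a1, untreated distal array 3 held 9.82 and untreated proximal array 1 held 11.77, against group medians of 12.56 distal and 9.78 proximal. The 2 regions as labelled overlapped in 24 of the 25 genes called, all but Slc1a4, a share of 96% beside 95% of all genes called.

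**Figure D4:**
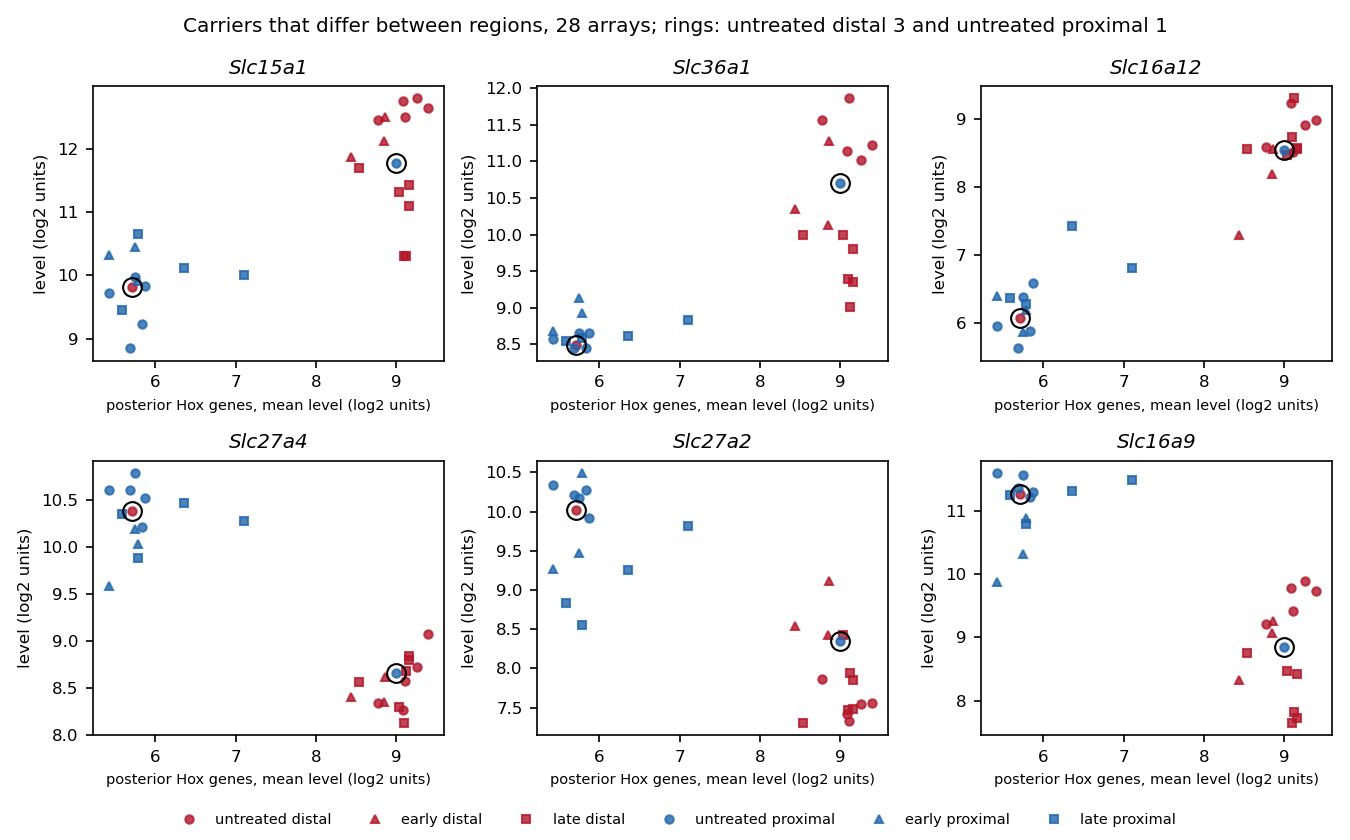
Log2 level of Slc15a1, Slc36a1, Slc16a12, Slc27a4, Slc27a2 and Slc16a9 (vertical axes) against the mean log2 level of 6 posterior Hox genes (horizontal axes) on each of the 28 arrays, distal in red and proximal in blue, with circles for untreated, triangles for early and squares for late. The ringed untreated distal array 3 (Hox mean 5.70) lies among the proximal points and untreated proximal array 1 (9.0) among the distal points in every panel.

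After 4 cycles the regions differed in more carriers. Between late distal and late proximal arrays 43 were called, 18 higher and 25 lower distally, beside 36.9% of all genes (19.1% higher and 17.8% lower). They shared 11 genes of the same direction with the 25 called between the untreated regions, which is 44.0% of those 25 and 25.6% of the 43, beside 48.8% and 13% over all genes called, and the 2 comparisons share no arrays. Without the 2 arrays of opposite pattern 22 were shared, 59.5% of 37 and 44% of 50, beside 48.5% and 30.7% over all genes. Slc16a9 was lower in the late distal colon, with a difference of -3.07 ± 0.42 log2 units (adjusted p = 3.3e-06), with 7.65 to 8.75 (median 8.12) distally and 10.78, 11.25, 11.49 and 11.30 proximally. The difference was -2.43 ± 0.30 for Slc16a5 (adjusted p = 1.04e-06), -2.37 ± 0.27 for Slc3a1 (adjusted p = 3.86e-07) and -2.21 ± 0.62 for Slc6a19, a neutral amino acid carrier of the small intestine (adjusted p = 0.00635), the last a call lost without late proximal array 1. The late distal median of Slc6a19, 3.58, lay below the dim mark of 4.114. Higher in the late distal colon were Slc38a4 by 2.58 ± 0.31 (adjusted p = 6.96e-07), Slc7a11 by 2.18 ± 0.39 (adjusted p = 9.07e-05) and Slc16a3 by 2.06 ± 0.35 (adjusted p = 5.15e-05).

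The late response itself differed between the regions in 29 carriers, by the interaction of region and treatment, a share of 34.9% beside 19.4% of all genes. In 14 it was higher in the distal colon and in 15 lower, beside 10.9% and 8.49% of all genes. With quantile normalization repeated the split was 11 to 18. Without the 2 arrays of opposite pattern it was 15 to 25 (40 genes), a share of 48.2% beside 23% of all genes. The largest positive differences were those of Slc38a4 (2.83 ± 0.42, adjusted p = 4.2e-05), Slc15a3 (2.15 ± 0.45, adjusted p = 0.00168) and Slc16a10 (2.05 ± 0.39, adjusted p = 0.000835). The largest negative ones were those of Slc16a9 (-1.97 ± 0.56, adjusted p = 0.0149), Slc16a5 (-1.91 ± 0.41, adjusted p = 0.0018) and Slc1a3 (-1.90 ± 0.38, adjusted p = 0.00114). The fructose carrier Slc2a5 fell distally and differed by -0.0022 ± 0.21 proximally, with a difference of the responses of -1.55 ± 0.28 (adjusted p = 0.000364). Slc7a11 did not pass this test (1.38 ± 0.52, adjusted p = 0.0605). For the early response, 0 carriers and 0% of all genes were called by limma as different between the regions. An unadjusted p under 0.05 was found in 6 carriers. All genes were not counted at that threshold, so the 6 are no result about the carriers.

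**Figure D5:**
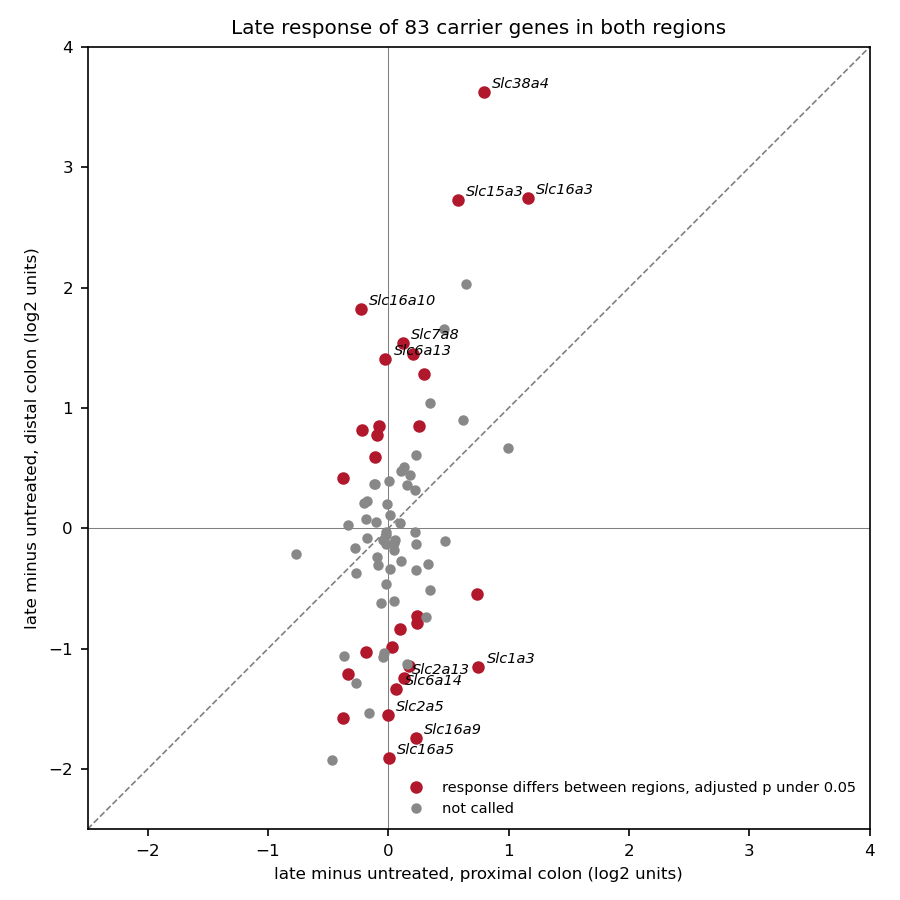
Late minus untreated log2 difference of the 83 carriers in the distal colon (vertical axis) against the proximal colon (horizontal axis); the dashed line marks equal responses, and red points are the 29 carriers whose response differed between regions at an adjusted p under 0.05. Slc38a4 (3.62 distal, 0.79 proximal) stands highest, and most points spread along the vertical axis.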

How the data were processed

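RNA from 28 colon samples was amplified with the NuGEN Ovation kit and hybridized to arrays, per the labels' protocols. RMA and Partek 6.5 are named in the submitters' processing notes, and the deposited values are log2 intensities already normalized between arrays. The authors' deposited comparison table gives signed fold changes (a score with no values between -1 and 1), p-values and step-up p-values, and its names were used for the probe sets. Its step-up p-values served as an alternative test. Of 45101 probe sets, 26933 are in that table, and they name 14123 genes, with the probe set of highest mean kept for each gene and no filter on low values, so all 83 carriers were tested. The largest difference between the group means and those of the authors' table was 0.0051 log2 units, and array medians ran from 6.608 to 6.799. The number of arrays limits the precision, since array files give no depth.

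A linear model over the 6 groups was fitted with limma 3.58.1 in R 4.3.3 (22 residual degrees of freedom), with the moderated test and Benjamini-Hochberg adjustment over all genes at 0.05, after a test on simulated data. Figures used matplotlib 3.10.9. Genes were named by rule: the 12 largest called rises and 12 largest called falls in each treated distal comparison with untreated, 6 of each elsewhere, each carrier within its family, and the 4 called genes with the largest difference in each pathway list. The carriers and lists were chosen with earlier results of these data known. Motifs were counted in RefSeq promoters (GRCm38.p6). Alternatives changed the scaling, probe set rule, dim-gene filter (mean of at least 6 log2 units), arrays and block, and the leaving out of arrays with Cpa1 above 7 was chosen after seeing the data. A probe set named D630004K10Rik, a synonym of Slc16a7, and a gene named together with an identifier, Slc6a9, lay outside the naming rule. A few genes that enter the counts are not reported here by name, 1 carrier among them.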

Additional observations from a re-analysis of the deposited data

Results flagged for a closer look

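The early groups, with 3 arrays each, were too small for the following check and were left out. Of 172 groups of arrays examined over 43 carriers named in the comparisons, 31 held 1 array set apart from the rest of its group by a gap above the 95% critical value, where chance alone gives about 1 in 20. Untreated proximal array 1 was the array in 13 of them and untreated distal array 3 in 11, the 2 arrays whose posterior Hox level went against the regional label. On untreated proximal array 1 the levels, in log2 units, were Slc1a1 (11.52), Slc1a2 (4.91), Slc3a1 (9.69), Slc6a4 (9.05), Slc6a8 (12.28), Slc7a11 (4.95), Slc16a5 (9.87), Slc16a6 (9.01), Slc16a9 (8.84), Slc16a12 (8.55), Slc27a2 (8.35), Slc27a4 (8.67) and Slc36a1 (10.70). On untreated distal array 3 they were Slc1a1 (10.62), Slc1a3 (6.18), Slc5a8 (12.37), Slc6a4 (7.02), Slc6a8 (10.95), Slc6a19 (5.68), Slc15a1 (9.82), Slc16a9 (11.26), Slc16a12 (6.07), Slc27a2 (10.02) and Slc36a1 (8.49). Late proximal array 1 stood apart in Slc7a9 (10.12), Slc16a5 (10.08) and Slc43a2 (10.67). The others were untreated proximal array 4 in SLC6A20 (6.06), late distal array 1 in Slc16a12 (9.30), late distal array 3 in Slc16a6 (9.58) and late distal array 6 in Slc2a4 (7.97).

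The late response differed between the distal and the proximal colon in 29 carriers by the interaction test of limma (adjusted p under 0.05 over all genes). The difference of the responses, distal minus proximal in log2 units, was positive in 14: Slc38a4 (2.83), Slc15a3 (2.15), Slc16a10 (2.05), Slc16a3 (1.58), Slc6a13 (1.43), Slc7a8 (1.42), Slc7a5 (1.24), Slc6a12 (1.04), Slc16a6 (0.99), Slc7a6 (0.92), Slc1a4 (0.88), Slc16a13 (0.80), Slc1a7 (0.70) and Slc3a2 (0.59). It was negative in 15: Slc16a9 (-1.97), Slc16a5 (-1.91), Slc1a3 (-1.90), Slc2a5 (-1.55), Slc6a14 (-1.40), Slc2a13 (-1.37), Slc2a4 (-1.32), Slc7a10 (-1.28), Slc7a14 (-1.20), Slc16a7 (-1.02), Slc5a1 (-1.02), Slc6a17 (-0.97), Slc6a15 (-0.93), Slc5a8 (-0.88) and Slc16a1 (-0.84).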

How the results depend on the processing

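For 92 results on named carriers, 3663 alternatives gave 3545 with the direction and side of the threshold kept, 118 with the direction kept and the call lost, and 0 reversed. The lost calls were mostly those of the early comparisons and of the untreated regions: 26 were lost with untreated arrays 1 to 3 alone, a setting that holds both arrays of opposite regional pattern, and 21 with only the groups compared. Among the late distal calls against untreated, Slc6a4 and Slc36a1 lost theirs with untreated arrays 1 to 3 alone, and the late response difference of Slc16a3 lost its call with untreated arrays 4 to 6 alone. The number of carriers called with 1 array left out ran from 43 to 50 for late distal against untreated distal, 6 to 17 for early distal against untreated distal, 17 to 27 for late against early distal, 0 to 0 for late proximal and 2 to 10 for early proximal against untreated proximal. It ran from 17 to 30 between the untreated regions, 40 to 49 between the late regions, 26 to 36 for the late and 0 to 0 for the early response difference. The early distal count of 13 became 37 with array weights, 5 without the Cpa1 arrays, 7 with only the groups compared, 21 without the 2 arrays of opposite pattern, and 7 and 21 with untreated arrays 1 to 3 and 4 to 6 alone. The early proximal count of 8 became 22 with array weights, 17 without the 2 arrays, 2 and 16 with untreated arrays 1 to 3 and 4 to 6 alone, and 4 by the authors' step-up p. The untreated regional count of 25 became 41 with array weights and 0 with only the groups compared or with untreated arrays 1 to 3 alone. Array weights also gave 7 carriers in the late proximal colon, 44 for the late and 2 for the early response difference. Calls over all genes moved too. The early distal share of 11.3% became 2.57% without the Cpa1 arrays and 13.2% without the 2 arrays of opposite pattern. The early proximal share of 7.59% became 12.1% without those 2. Shares over all genes are not given here for the other settings, so these counts are no result about the carriers in particular. The cause of these shifts was not tested.

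Centring each array on its median moved the late distal median of all genes to -0.12, against 0.0038, and that of the carriers to -0.22, against -0.097. Centring changed the early proximal split of 7 higher and 1 lower to 7 and 3, and repeated quantile normalization to 7 and 4. The late response split of 14 and 15 became 12 and 17 with centring and 11 and 18 with quantile normalization. Over all genes, the count between the untreated regions (1388) became 5100 with array weights and 1 with only the groups compared.

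Whether same-numbered arrays of the regions share an animal is not settled by the values. Correlations of same-numbered arrays ran from -0.233 to 0.691, and 4 of 13 correlated best with their own number. Early arrays 1 and 2 were among these 4, at 0.691 and 0.55. The check kept the 2 untreated arrays of opposite regional pattern. With the number as a fixed block the count of carriers called was 8 in the early distal and 4 in the early proximal comparison, against 13 and 8, and stayed within 1.5 times in the others. As a random block the early distal count was 13 and the early proximal count 8, and the estimated correlation within blocks was 0.1847.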
